A study of Rattus norvegicus with 6 samples.

Results

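Genes that mark T cells and natural killer (NK) cells, 10 in number, were followed in rat lung after inhaled particles: Cd3e, Cd3g, Cd4, Cd8a, Prf1, Gzmb, Nkg7, Klrb1a, Klrd1 and Ncr1. A probe was taken as a member's where the gene name in the scanner files, or an older synonym of it, was that gene. All 10 of the 10 genes had a probe, and all 10 passed the filter on dim probes, out of 15287 gene symbols on the array.

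Male Wistar rats, 9 weeks old, inhaled ultrafine nickel oxide (NiO, which the study used as its positive control), C60 fullerene (carbon in closed cages) or clean air in a whole-body chamber. Exposure took 6 h per day on 5 days per week for 4 weeks in every group, clean air included. The right lung was taken 33 days (1 month) or 3 days after the end of exposure, after perfusion with saline. There were 4 NiO, 4 C60 and 4 control arrays at 1 month, and 4 NiO, 2 C60 and 3 control arrays at 3 days, 1 right lung per array as read from the n in the labels. A whole right lung mixes many cell types, so fewer cells of a type and less RNA per cell cannot be told apart.

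T cells see antigen through a receptor whose signal is carried inward by the CD3 chains, with CD4 or CD8 as a coreceptor. NK cells and cytotoxic T cells kill through granules: perforin opens a way into the target cell and granzymes act inside it. NK cells carry activating and inhibitory receptors, many of them lectin-like receptors encoded by the Klr genes. In rats, CD4 is also found on monocytes and macrophages and CD8 alpha on NK cells, so neither gene marks 1 cell type alone.

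Values are log2 signals relative to the 75th percentile of the same array, so 0 is a probe at that percentile. They order groups for 1 probe and say nothing of 1 gene's level against another's. On the 21 arrays used, 56.6 to 77.8 percent of probes were well above background. The lung markers Sftpc (surfactant protein C) and Ager (a marker of alveolar type I cells) had group means of 8.61 to 9.12 and 5.28 to 6.06. The 2 C60 arrays at 3 days had the brightest negative controls, with net signals of 142.7 and 64.4, against 24.3 to 37.4 on the other arrays used. Each slide held 1 group, and the 1-month and 3-day arrays were scanned on different days. Slide and group therefore cannot be told apart, nor can the day of scanning and the time.

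The members moved little with either particle and not as a group. A member was called at a Benjamini-Hochberg adjusted p under 0.05 in limma over all 25242 features. With NiO at 1 month 1 of 10 members was called, Gzmb, lower; 30.9 percent of all features were called in that comparison, 11.9 percent higher and 18.9 percent lower. With C60 at 1 month 1 of 10 was called, Cd3e, higher, beside 19.8 percent of all features, 7.31 percent higher and 12.5 percent lower. With NiO at 3 days 0 of 10 were called, beside 18.8 percent of all features, 11 percent higher and 7.81 percent lower. There 1 of 10, Nkg7, had an unadjusted p under 0.05 by limma, beside 35.2 percent of all features. With C60 at 3 days 1 of 10 was called, Klrb1a, higher, beside 4.93 percent of all features, 2.95 percent higher and 1.98 percent lower. Each of these 3 calls was lost under some other processing.

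**Figure D1:**
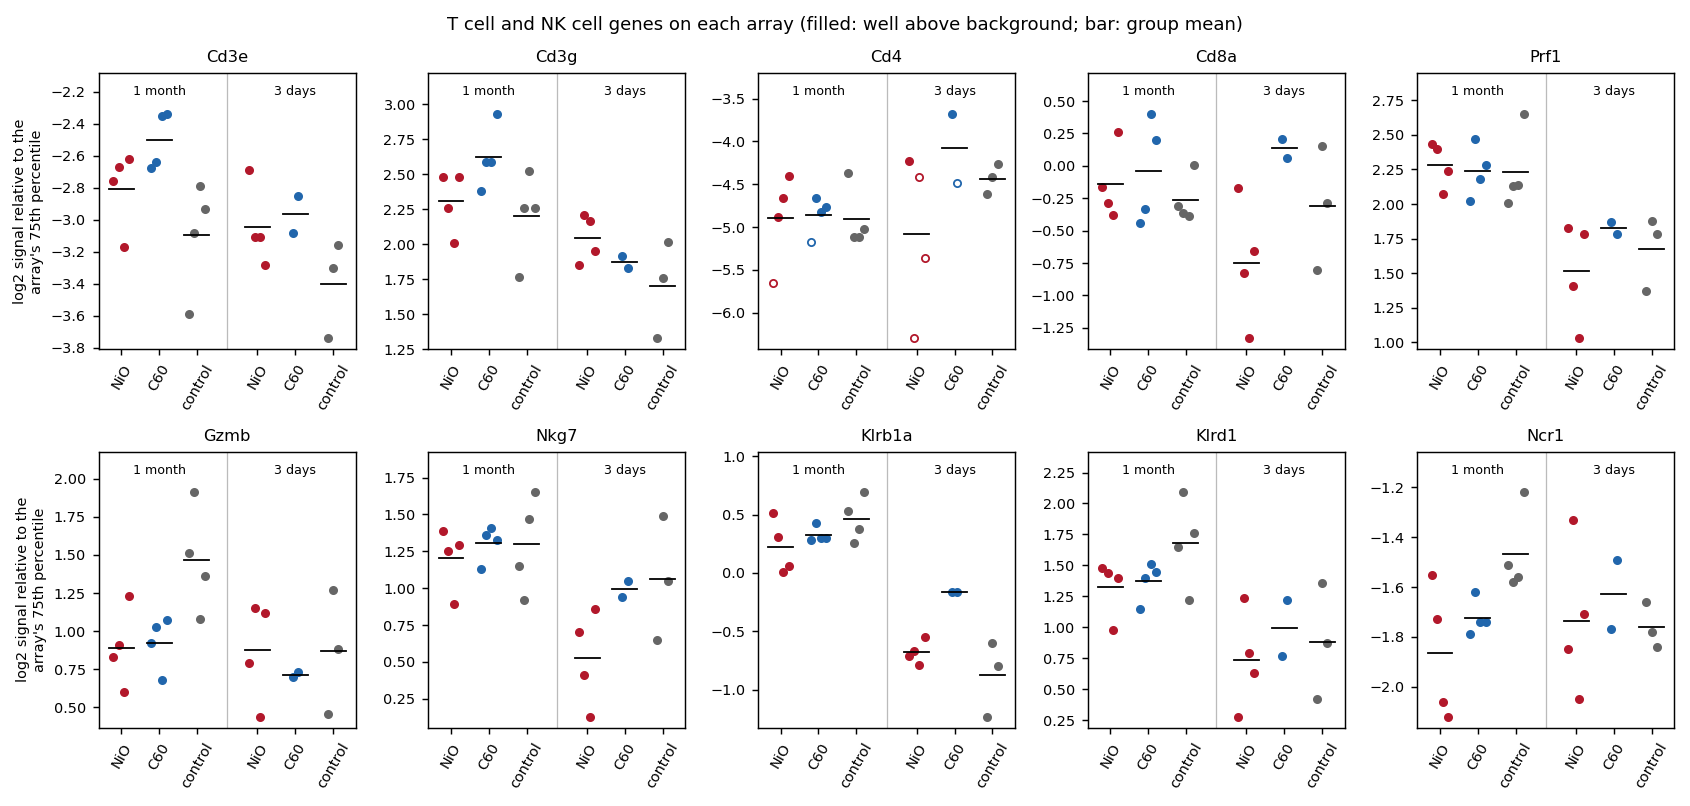
Log2 signal relative to the array's 75th percentile (y axis) of each member on each of the 21 arrays, by group (x axis) at 1 month and at 3 days. Points are arrays, filled where the probe was well above background, and bars are group means; Klrb1a separates the times, Cd4 is the only member with open points, and most panels show groups that overlap.

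The median log2 fold of the 10 members was -0.04 with NiO and 0.01 with C60 at 1 month, where the medians over all features were -0.12 and -0.09. At 3 days it was -0.07 with NiO and 0.16 with C60, where the medians over all features were 0.04 and -0.03. Scaling each array to its median in place of its 75th percentile moved the median of all features at 1 month by 0.33 with NiO and 0.31 with C60, and at 3 days by -0.17 with NiO and -0.03 with C60. With that scaling, calls over all features at 1 month were 7693 higher and 2235 lower with NiO, against 3016 higher and 4780 lower with the 75th percentile, and 6724 higher and 1826 lower with C60, against 1845 higher and 3161 lower. At 3 days they were 1681 higher and 3174 lower with NiO, against 2781 higher and 1972 lower. Folds from the authors' deposited table of ratios, which has no replicates, lay nearer to the array-median values: for Cd3e at 1 month they were 0.63 with NiO and 0.90 with C60. The sign of a small difference at 1 month thus rests on the scaling, and folds are also given relative to the median of all features where a member's call is reported.

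**Figure D2:**
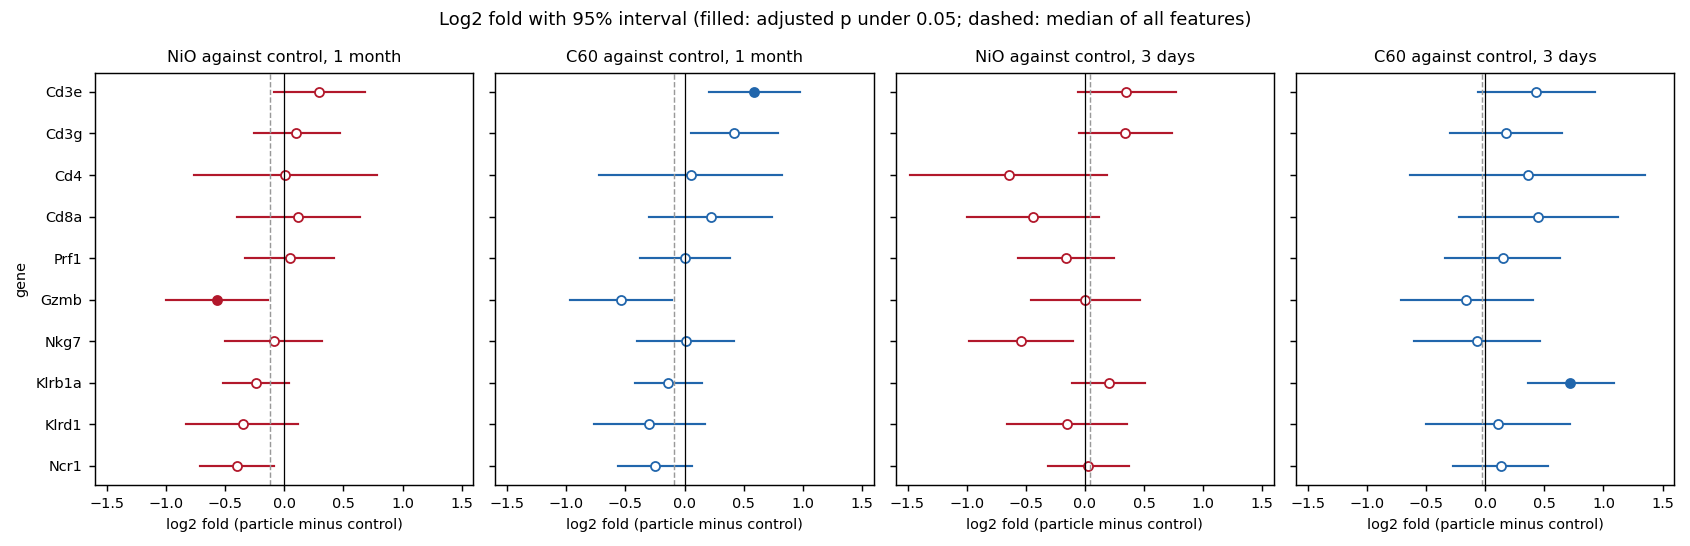
Log2 fold of each member, particle minus control (x axis), with its 95% confidence interval from limma, in 4 panels by particle and time. Filled points passed an adjusted p of 0.05 (Gzmb with NiO and Cd3e with C60 at 1 month, Klrb1a with C60 at 3 days); the dashed line is the median over all features.

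Cd3e encodes the epsilon chain of the CD3 complex. At 1 month it read -2.76, -2.67, -3.17 and -2.62 on the NiO arrays and -2.68, -2.64, -2.35 and -2.34 on the C60 arrays, against -3.59, -3.08, -2.79 and -2.93 on the control arrays. All 4 C60 arrays lay above all 4 control arrays, as 11.4 percent of all features did, while the NiO arrays overlapped the control range. Cd3e rose with C60 by 0.59 (SE 0.18, 1.51-fold, adjusted p = 0.0311, limma). The NiO difference was 0.29 (SE 0.18, adjusted p = 0.221), and NiO minus C60 was -0.30 (SE 0.18, adjusted p = 0.689), so the particles were not shown to differ. With scaling to the array median the NiO difference passed too (0.63, adjusted p = 0.00951). Relative to the median of all features the C60 fold was 0.68 under both scalings. The C60 call was lost when only the C60 and control arrays were fitted (adjusted p = 0.064), with another background correction (normexp, 0.33, adjusted p = 0.0614) and when all 4 C60 arrays of 3 days entered the shared fit (adjusted p = 0.0827). It was also lost without control array 1 at 1 month, the lowest value (0.43, adjusted p = 0.0922), without control array 2 (adjusted p = 0.0676) and without C60 array 2, 3 or 4 (adjusted p = 0.0531, 0.0813 and 0.0696).

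At 3 days Cd3e read -2.69, -3.11, -3.11 and -3.28 on the NiO arrays and -3.08 and -2.85 on the C60 arrays, against -3.74, -3.30 and -3.16 on the control arrays. The C60 arrays lay above the control arrays, as 20.2 percent of all features did in that comparison, and the NiO arrays overlapped them. Neither difference passed the test: 0.35 (SE 0.20, adjusted p = 0.211) with NiO and 0.43 (SE 0.24, adjusted p = 0.371) with C60.

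Cd3g encodes the gamma chain of the same complex. It read 2.48, 2.26, 2.01 and 2.48 on the NiO arrays and 2.38, 2.59, 2.59 and 2.93 on the C60 arrays at 1 month, against 1.77, 2.26, 2.52 and 2.26 on the control arrays. The C60 values reached highest but overlapped the controls through control array 3. The C60 difference was 0.42 (SE 0.17, adjusted p = 0.0918) and the NiO difference 0.10 (SE 0.17, adjusted p = 0.660). With scaling to the array median both passed (0.73, adjusted p = 0.00337, and 0.44, adjusted p = 0.0345). The 3-day values were 1.85, 2.21, 2.17 and 1.95 with NiO and 1.92 and 1.83 with C60, against 1.33, 1.76 and 2.02 in the controls. Groups overlapped, with differences of 0.34 (SE 0.19, adjusted p = 0.204) for NiO and 0.18 (SE 0.22, adjusted p = 0.788) for C60.

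Cd4, the coreceptor of helper T cells, was dim and is the least certain member. Its probe was well above background on 3 of 4 NiO, 3 of 4 C60 and 4 of 4 control arrays at 1 month, and on 1 of 4 NiO, 1 of 2 C60 and 3 of 3 control arrays at 3 days. At 1 month it read -5.65, -4.88, -4.66 and -4.40 with NiO and -5.18, -4.66, -4.82 and -4.77 with C60, against -4.37, -5.12, -5.12 and -5.02 in the controls. The groups overlapped, and the differences of 0.01 and 0.05 had an SE of 0.37 each. At 3 days it read -4.23, -6.30, -4.42 and -5.36 with NiO and -3.68 and -4.48 with C60, against -4.62, -4.42 and -4.26 in the controls. The NiO arrays spread over more than the whole control range, to both sides of it, and the difference of -0.64 had an SE of 0.40 (adjusted p = 0.259).

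Cd8a encodes the alpha chain of CD8, the coreceptor of cytotoxic T cells. At 3 days it read -0.17, -0.83, -1.33 and -0.66 on the NiO arrays and 0.21 and 0.06 on the C60 arrays, against -0.80, 0.15 and -0.29 on the control arrays. All NiO arrays lay below both C60 arrays, and the control arrays overlapped each particle's range. NiO minus C60 was -0.88 (SE 0.30, 1.85-fold lower, adjusted p = 0.0780), and it passed when array weights were used (adjusted p = 0.0155) or without NiO array 1 (adjusted p = 0.0132). Against control the differences were -0.44 (SE 0.27, adjusted p = 0.251) for NiO and 0.45 (SE 0.32, adjusted p = 0.537) for C60. At 1 month Cd8a read -0.16, -0.29, -0.38 and 0.26 with NiO and -0.44, -0.33, 0.40 and 0.20 with C60, against -0.31, -0.36, -0.39 and 0.01 in the controls. These groups overlapped, and the differences were 0.12 (SE 0.25) and 0.22 (SE 0.25).

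In NiO minus C60 at 3 days 0 of 10 members were called, beside 7.73 percent of all features. Of the 10, 3 had an unadjusted p under 0.05 by limma (Cd4, Cd8a and Klrb1a), beside 27 percent of all features. A negative difference was found for 8 of 10, with a median of -0.28 beside 0.06 over all features. The share of negative differences over all features is not given here. Cd8a, Klrb1a and Nkg7 had groups that did not overlap, NiO below C60, as 10.6 percent of all features did. At 1 month 0 of 10 were called, beside 1.22 percent of all features, and 0 had an unadjusted p under 0.05, beside 9.83 percent. A negative difference was found there for 9 of 10, with a median of -0.1 beside -0.01 over all features.

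Prf1 encodes perforin. It read 2.43, 2.4, 2.07 and 2.24 with NiO and 2.02, 2.47, 2.18 and 2.28 with C60 at 1 month, against 2.01, 2.13, 2.14 and 2.65 in the controls. The arrays of 3 days read 1.83, 1.41, 1.03 and 1.78 with NiO and 1.87 and 1.78 with C60, against 1.37, 1.88 and 1.78 in the controls. All groups of a time overlapped for Prf1. Its differences at 1 month were 0.05 for NiO and 0.00 for C60 (SE 0.18 each), with 95% intervals of -0.33 to 0.42 and -0.38 to 0.38.

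Gzmb stood out in another way, because 3 probes of different sequence carried its name. The file describes 1 as granzyme B and the others as granzyme-like protein I and granzyme-like protein III. They lie on the minus strand of rat chromosome 15 (build rn4), granzyme B at chr15:35195458-35195517, granzyme-like protein I within chr15:35062817-35063001 and granzyme-like protein III at chr15:34900680-34900739, and the files do not say which exon or untranslated part they match. The probe sequences are shown 5′ to 3′, as the scanner files give them, because their values differed; the first 30 of the 60 bases are shown for granzyme B and all 60 for the others. No stretch longer than 7 bases is shared between any pair of the full probes.
granzyme B: ctgtgacaacccagctgacatctgctagtt
granzyme-like protein I: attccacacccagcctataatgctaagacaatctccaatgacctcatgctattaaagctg
granzyme-like protein III: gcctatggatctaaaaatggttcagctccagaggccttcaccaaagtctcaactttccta

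The granzyme B probe, used as the Gzmb value throughout, read 0.83, 0.91, 0.60 and 1.23 on the NiO arrays and 0.92, 1.03, 0.68 and 1.07 on the C60 arrays at 1 month, against 1.51, 1.91, 1.08 and 1.36 on the control arrays. The C60 arrays all lay below the control arrays, as 16.3 percent of all features did, and 1 NiO array overlapped the lowest control. Gzmb fell with NiO by 0.57 (SE 0.20, 1.49-fold lower, adjusted p = 0.0414). The C60 difference was of similar size, -0.54 (SE 0.20, 1.46-fold lower), with an adjusted p of 0.0668. NiO minus C60 was -0.03 (95% interval -0.46 to 0.40).

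The NiO call of Gzmb was lost with normexp (-0.39, adjusted p = 0.12), with scaling to the array median (-0.24, adjusted p = 0.456), with no filter on dim probes (adjusted p = 0.0558) and with only the NiO and control arrays in the fit (adjusted p = 0.0608). Relative to the median of all features the fold was -0.45 under both scalings. Leaving out 1 array at a time ended the call for 8 of 21 arrays, with an adjusted p of up to 0.149 without control array 2, the highest value. At 3 days Gzmb read 0.79, 1.15, 0.44 and 1.12 with NiO and 0.70 and 0.73 with C60, against 0.46, 1.27 and 0.88 in the controls. The 3 groups overlapped, and the NiO difference was 0.00 (SE 0.22).

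The granzyme-like protein I probe moved more. At 1 month it read -2.67, -2.59, -2.92 and -2.43 with NiO and -2.59, -2.49, -2.59 and -2.45 with C60, against -1.19, -0.41, -0.67 and -0.94 in the controls. The particle arrays lay together below these controls, as 22 percent of all features did with NiO and 16.3 percent with C60. The 4 control arrays stood above every other array of the study, those of 3 days included. With each kept probe tested as a feature of its own, over 28690 probes, it fell with NiO by 1.85 (SE 0.21, 3.61-fold lower, adjusted p = 3.99e-05) and with C60 by 1.73 (SE 0.21, 3.31-fold lower, adjusted p = 0.000168). Its adjusted p stayed at or under 0.000959 without any single array.

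At 3 days the same probe read -2.31, -1.22, -1.74 and -1.70 with NiO and -2.20 and -1.77 with C60, against -2.45, -1.80 and -2.18 in the controls. These groups overlapped, and the differences of 0.40 (SE 0.22, adjusted p = 0.212) and 0.16 (SE 0.27, adjusted p = 0.853) did not pass. The change of effect between times was -2.25 for NiO (SE 0.31, adjusted p = 0.000166) and -1.89 for C60 (SE 0.34, adjusted p = 0.00207). The controls themselves were higher by 1.34 at 1 month than at 3 days (SE 0.22, adjusted p = 0.000156). The granzyme-like protein III probe varied too widely within groups for any statement: at 1 month it ranged from -4.61 to -1.51 with NiO and -4.62 to -1.55 with C60, against -3.49 to 0.49 in the controls.

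**Figure D3:**
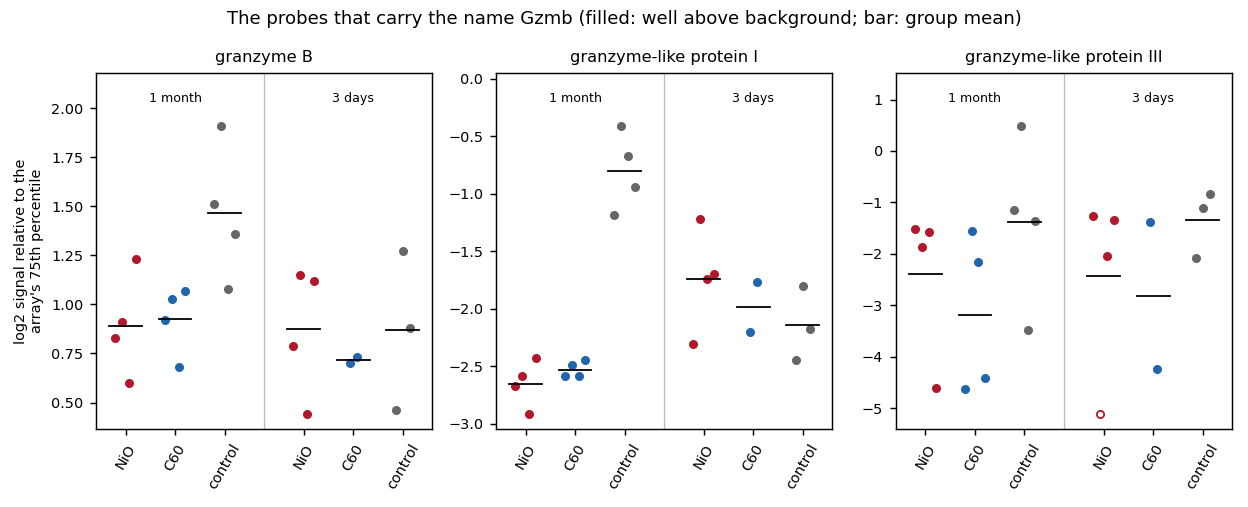
Log2 signal relative to the array's 75th percentile (y axis) of the 3 probes named Gzmb on each array, by group (x axis) at 1 month and at 3 days; bars are group means. The granzyme-like protein I probe shows the 4 control arrays of 1 month at -1.19 to -0.41, above all others, while granzyme-like protein III spreads over several log2 units within groups.

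Nkg7 encodes a membrane protein of cytotoxic granules. At 3 days it read 0.70, 0.41, 0.13 and 0.86 with NiO and 0.94 and 1.05 with C60, against 0.65, 1.49 and 1.05 in the controls. The NiO arrays lay below both C60 arrays and below all but control array 1. The NiO difference was -0.54 (SE 0.21, 1.45-fold lower, adjusted p = 0.0779), the nearest of the 10 to the threshold there. It passed with scaling to the array median (-0.72, adjusted p = 0.0403), with array weights (-0.69, adjusted p = 0.0137) and without control array 1 (-0.74, adjusted p = 0.0449), NiO array 1 or NiO array 4. At 1 month Nkg7 read 1.39, 1.25, 0.89 and 1.29 with NiO and 1.13, 1.36, 1.41 and 1.33 with C60, against 1.15, 0.92, 1.47 and 1.65 in the controls. The groups overlapped, with differences of -0.09 and 0.01 (SE 0.19 each).

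Klrb1a encodes NKR-P1A, an activating lectin-like receptor by which rat NK cells are recognised. Its probe lies on the minus strand at chr4:165637803-165637862 of rn4, close to that of its paralog Klrb1b, an inhibitory receptor, at chr4:165699496-165699555. The 2 probes are shown because they share the 20-base run in capitals, and 47 of 53 aligned bases are identical without gaps, so that how far each also reports the other gene's RNA is uncertain.
Klrb1a: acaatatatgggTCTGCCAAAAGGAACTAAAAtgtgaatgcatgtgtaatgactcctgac
Klrb1b: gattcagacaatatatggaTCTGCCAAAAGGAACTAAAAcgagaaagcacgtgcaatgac

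At 3 days Klrb1a read -0.71, -0.67, -0.79 and -0.55 with NiO and -0.16 and -0.16 with C60, against -1.23, -0.60 and -0.80 in the controls. Both C60 arrays lay above every NiO and control array of that time. C60 lay wholly above control for 20.2 percent of all features. Klrb1a rose with C60 by 0.72 (SE 0.17, 1.65-fold, adjusted p = 0.0204), and the fold relative to the median of all features was 0.75, or 0.76 with scaling to the array median. This call rests on 2 C60 arrays. It was lost without either of them (adjusted p = 0.135 and 0.116), without control array 1 (0.54, adjusted p = 0.0907), with scaling to the array median (adjusted p = 0.0949) and with only the C60 and control arrays in the fit (adjusted p = 0.14). NiO minus control was 0.20 (SE 0.15, adjusted p = 0.340) and NiO minus C60 was -0.52 (SE 0.16, adjusted p = 0.0602).

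At 1 month Klrb1a read 0.51, 0.31, 0.01 and 0.06 with NiO and 0.28, 0.43, 0.30 and 0.30 with C60, against 0.53, 0.26, 0.38 and 0.69 in the controls. The groups overlapped, with differences of -0.24 (SE 0.13, adjusted p = 0.178) and -0.14 (SE 0.13, adjusted p = 0.478). The C60 effect was lower at 1 month than at 3 days by 0.86 (SE 0.22, adjusted p = 0.0203). That made 1 of 10 members called for the change of the C60 effect, beside 10.4 percent of all features. For the change of the NiO effect 0 of 10 were called, beside 37.5 percent. There 1 of 10, Klrb1a, had an unadjusted p under 0.05 by limma, beside 48.8 percent of all features. The C60 change of effect was lost with scaling to the array median (-0.53, adjusted p = 0.191), without control array 1 at 3 days (adjusted p = 0.0504) and without either C60 array at 3 days.

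Klrd1 encodes CD94, the partner chain of the NKG2 receptors. It read 1.48, 1.44, 0.98 and 1.40 with NiO and 1.15, 1.40, 1.51 and 1.45 with C60 at 1 month, against 1.65, 2.09, 1.22 and 1.76 in the controls. Control array 3 fell within the particle range and the other 3 controls lay above it. The differences were -0.35 for NiO and -0.30 for C60 (SE 0.23 each, adjusted p = 0.232 and 0.343). Its 3-day values were 0.28, 1.24, 0.79 and 0.63 with NiO and 0.77 and 1.22 with C60, against 0.42, 1.36 and 0.87 in the controls, all overlapping.

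Ncr1 encodes NKp46, an activating receptor found mainly on NK cells. It read -1.55, -1.73, -2.06 and -2.12 with NiO and -1.79, -1.62, -1.74 and -1.74 with C60 at 1 month, against -1.51, -1.58, -1.56 and -1.22 in the controls. All C60 arrays lay below the controls, as 16.3 percent of all features did, and so did all but 1 NiO array. The NiO difference of -0.40 (SE 0.15, 1.32-fold lower) had an adjusted p of 0.0501 and the C60 difference of -0.25 (SE 0.15) one of 0.225. At 3 days it read -1.85, -1.33, -2.05 and -1.71 with NiO and -1.77 and -1.49 with C60, against -1.66, -1.78 and -1.84 in the controls, and the NiO range took in the control range.

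In control lungs 5 of 10 members were higher at 1 month than at 3 days and 0 were lower, beside 46.1 percent of all features called, 27.7 percent higher and 18.4 percent lower, so the share called is near that of all features. They were Klrb1a (1.34, SE 0.15, adjusted p = 2.61e-06), Klrd1 (0.79, SE 0.24, adjusted p = 0.0134), Gzmb (0.59, SE 0.22, adjusted p = 0.0352), Prf1 (0.56, SE 0.19, adjusted p = 0.026) and Cd3g (0.50, SE 0.19, adjusted p = 0.038). With scaling to the array median Klrb1a stayed called and the other 4 did not (Klrd1 adjusted p = 0.0504, Cd3g 0.129, Prf1 0.19 and Gzmb 0.193). Control arrays of 1 month lay wholly above those of 3 days for Klrb1a, Prf1 and Ncr1, as 29.9 percent of all features did. The median of the 10 members was 0.40 and that of all features 0.19. Of the 6 group means, that of the 1-month controls was the highest for Gzmb, Klrb1a, Klrd1 and Ncr1, which is 4 of 10 members. Cd3e and Cd3g were highest in the C60 group of 1 month and lowest in the controls of 3 days.

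Klrb1a had the widest span of group means among the members, 1.34 between the controls of 1 month and of 3 days. The genes whose values over the 21 arrays, each centred on its own mean, were nearest to those of Klrb1a were Fam221a, Tbce and Klhl4, with root mean square differences of 0.21, 0.21 and 0.22 log2 units beside a spread of 0.54 of Klrb1a itself. This likeness is a description and takes in the step between the times.

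Other genes of these cells were read from 4 lists. Of the T cell receptor and identity list 21 of 27 genes were tested, of the NK receptor and adaptor list 13 of 20, of the cytotoxic granule and death ligand list 13 of 15, and of the list of cytokines, chemokines, receptors and transcription factors 18 of 29. Over the 4 comparisons of a particle with control they gave 45 calls on 29 genes. The 4 lists together held 65 tested entries, with Cd247 in both the T cell and the NK list. Of these entries 30.8 percent were called with NiO and 18.5 percent with C60 at 1 month. At 3 days 15.4 percent were called with NiO and 4.62 percent with C60. Over all features the shares were 30.9, 19.8, 18.8 and 4.93 percent in the same order, so the lists were called about as often as other features. Of these 45 calls, 7 held under every alternative processing and without any single array: Il2rg, Cxcl9, Tnfsf10, Il18 and Lamp1 with NiO at 1 month, Il2rg with C60 at 1 month, and Icos with NiO at 3 days.

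**Figure D4:**
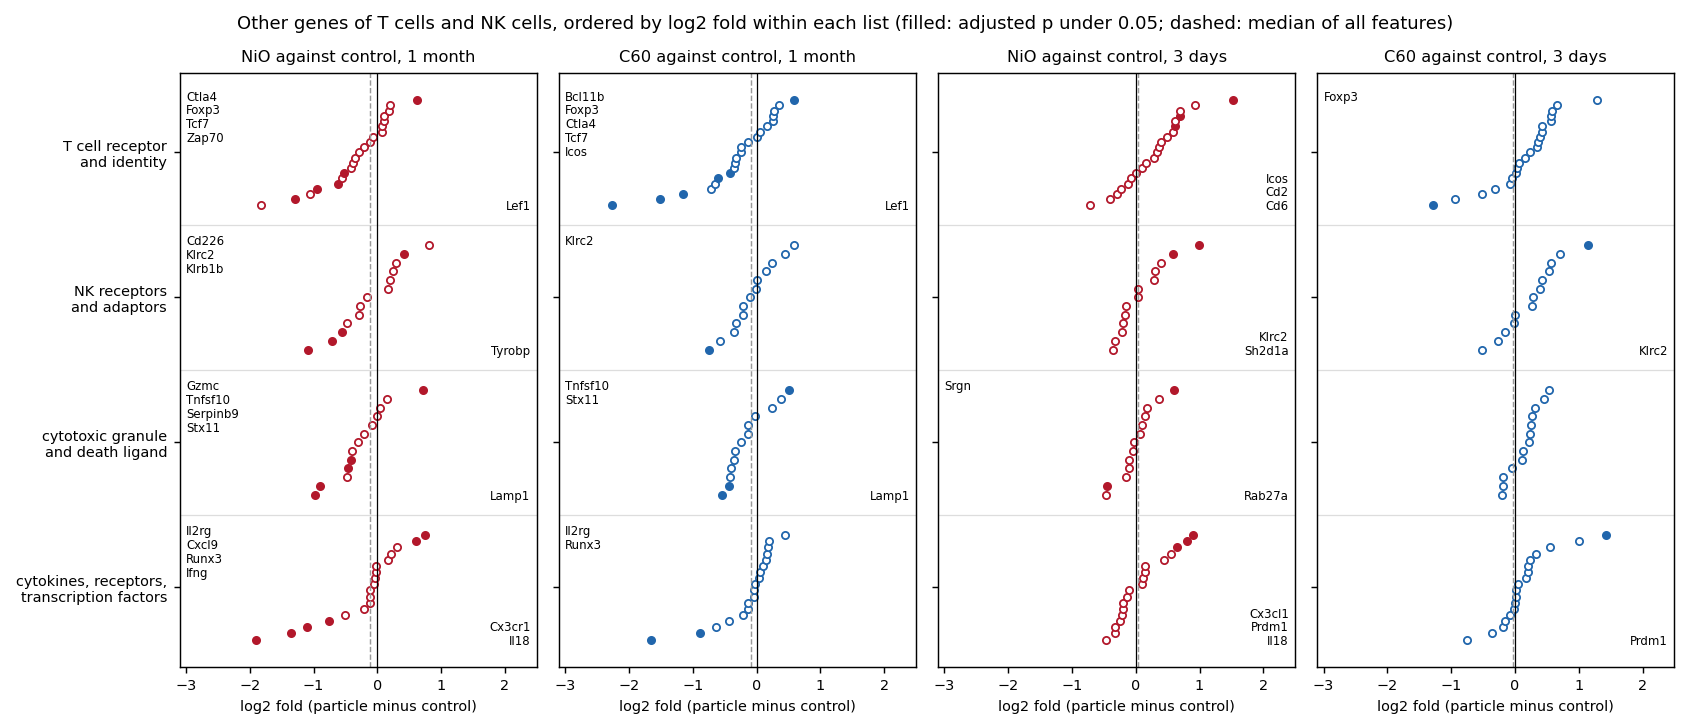
Log2 fold, particle minus control (x axis), of the tested genes of the 4 lists (rows), in order of fold within each list, in 4 panels by particle and time. Filled points passed an adjusted p of 0.05, with names at the upper left for lower and at the lower right for higher; Icos at 3 days and Il2rg at 1 month lie far out with NiO, at 1.53 and -1.91.

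With NiO at 1 month the T cell list held 1 gene that was higher and 4 that were lower, with a median fold of -0.29 where that of all features was -0.12. That is 4.76 percent higher and 19 percent lower, beside 11.9 and 18.9 percent of all features. In the NK, granule and cytokine lists 23.1, 30.8 and 22.2 percent were lower. Scaled to the array median, 4 genes of the T cell list were higher and 2 lower, so its calls have no direction that holds under both scalings. Calls over all features at 1 month turned towards higher with that scaling too, as given above. The direction of calls in this list, and in the lists below, is therefore not read as a trait of the list. Ctla4, an inhibitory receptor of activated T cells, fell by 1.30 (SE 0.31, adjusted p = 0.00647), and Foxp3, the transcription factor of regulatory T cells, by 0.95 (adjusted p = 0.0156). Tcf7, a transcription factor of naive and memory T cells, fell by 0.62 and Zap70, the kinase that binds the CD3 and zeta chains, by 0.52 (adjusted p = 0.00928 and 0.0121), whereas Lef1, a relative of Tcf7, rose by 0.62 (adjusted p = 0.0198).

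Of the NK receptor list 1 gene was higher and 3 were lower with NiO at 1 month, or 2 and 0 with scaling to the array median. 1 of the 3 lower, the activating receptor gene Cd226, passed the filter on dim probes only through the 1-month controls, the group where it is high, so its call is no support and no fold is given. Klrc2, which encodes the activating receptor NKG2C, fell by 0.72 and Klrb1b by 0.56 (adjusted p = 0.0309 and 0.044). Tyrobp, a signalling adaptor that macrophages share with NK cells, rose by 0.42 (adjusted p = 0.0203).

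Of the granule list 1 was higher and 4 were lower, or 1 and 1 with scaling to the array median. Tnfsf10, the death ligand TRAIL, fell by 0.90 (SE 0.16, adjusted p = 0.00109): its arrays read -3.12, -3, -3.18 and -2.95 with NiO, against -1.89, -1.93, -2.38 and -2.43 in the controls. These groups did not overlap, NiO below control, as was so for 22 percent of all features. Gzmc, which encodes granzyme C, fell by 0.98 (adjusted p = 0.0198), Serpinb9, an inhibitor of granzyme B, by 0.46 (adjusted p = 0.0197) and Stx11, a fusion protein of granule release, by 0.42 (adjusted p = 0.029). Lamp1, a lysosomal protein of nearly all cells, rose by 0.72 (SE 0.13, adjusted p = 0.00119).

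Of the cytokine and transcription factor list 2 were higher and 4 were lower, or 3 and 3 with scaling to the array median. Il2rg encodes the gamma chain shared by the receptors of interleukin-2, interleukin-15 and others. It read -2.25, -2.37, -2.36 and -2.13 with NiO and -1.70, -2.22, -2.09 and -2.08 with C60 at 1 month, against -0.44, 0.34, -0.52 and -0.84 in the controls. The particle arrays lay below all 4 controls, as 22 percent of all features did with NiO and 16.3 percent with C60. Il2rg fell with NiO by 1.91 (SE 0.22, 3.76-fold lower, adjusted p = 4.78e-05) and with C60 by 1.66 (SE 0.22, 3.15-fold lower, adjusted p = 0.000326). Relative to the median of all features these folds were -1.79 and -1.57.

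Cxcl9, an interferon-induced chemokine that attracts activated T cells, separated the particles. At 1 month it read -4.36, -4.23, -3.93 and -3.93 with NiO and -2.82, -3.22, -2.87 and -2.71 with C60, against -3.01, -3.09, -2.41 and -2.52 in the controls. The NiO arrays lay below all others of that time, and the C60 arrays overlapped the controls. NiO lay wholly below control for 22 percent of all features. Cxcl9 fell with NiO by 1.35 (SE 0.20, 2.56-fold lower, adjusted p = 0.000286), and NiO minus C60 was -1.21 (SE 0.20, adjusted p = 0.00398). Ifng, which encodes interferon gamma, fell with NiO by 0.76 (adjusted p = 0.0267) and Runx3, a transcription factor of CD8 T cells and NK cells, by 1.10 (adjusted p = 0.012). Il18, which encodes a cytokine that acts on NK cells and T cells, rose by 0.60 (SE 0.16, adjusted p = 0.0114), and Cx3cr1, the receptor of fractalkine, by 0.75 (adjusted p = 0.0214).

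With C60 at 1 month the counts were 1 higher and 5 lower of the T cell list, 0 and 1 of the NK list, 1 and 2 of the granule list and 0 and 2 of the cytokine list. That is 4.76, 0, 7.69 and 0 percent higher and 23.8, 7.69, 15.4 and 11.1 percent lower, beside 7.31 and 12.5 percent of all features. Scaled to the array median the counts were 4 and 3, 0 and 0, 2 and 0, and 3 and 1, where calls over all features turned towards higher too. Beside Il2rg, Foxp3 fell by 1.52 (SE 0.27, adjusted p = 0.00212), Ctla4 by 1.15 (adjusted p = 0.019) and Tcf7 by 0.60 (adjusted p = 0.016). The Foxp3 probe was not well above background on every C60 array of 1 month. Its C60 folds under other processing were -1.85 to -0.32, with a limma adjusted p of up to 0.195. 1 of the 5 lower of the T cell list, Bcl11b, a transcription factor of T cell identity, passed the filter only through the 1-month controls and was well above background on 1 of 4 C60 arrays, so its call is no support and no fold is given. Icos, Klrc2, Runx3, Stx11 and Tnfsf10 fell by 0.41 to 0.88 (adjusted p = 0.0233 to 0.0477). Without 1 array at a time the call of Runx3 was lost for 18 of 21 arrays (-0.51, adjusted p = 0.119 without control array 3), that of Icos for 8, that of Klrc2 for 6 and those of Stx11 and Tnfsf10 for 4 each. Lef1 and Lamp1 rose by 0.58 and 0.51 (adjusted p = 0.0385 and 0.0135). The controls are shared by both particle comparisons. Among the 29 called genes the 1-month controls had the highest of the 6 group means for 16 and the lowest for 1. Of the 45 calls, 20 with NiO and 12 with C60 were made against these same controls. The ranking is thus partly set by how the genes were chosen, and its share over all features was not computed. For Ctla4, Runx3, Foxp3, Bcl11b and Tcf7 control arrays 3 and 4 of 1 month stood above control arrays 1 and 2. Without control array 3 the NiO folds of Ctla4, Runx3, Foxp3 and Tcf7 were -0.91, -0.74, -0.76 and -0.46 and still passed, as did the C60 folds of Ctla4 (-0.75), Foxp3 (-1.33) and Tcf7 (-0.45). Leaving out 1 of the 21 arrays did end the calls of Ctla4 and Tcf7 with C60 and of Foxp3 with NiO. Their adjusted p by limma then reached 0.0532, 0.0547 and 0.0508. Each of the calls named here was also lost under at least 1 other processing. Runx3 read -2.75, -2.45, -0.74 and -1.38 on control arrays 1 to 4.

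With NiO at 3 days 3 genes of the T cell list were higher and 0 lower (2 and 1 with scaling to the array median), which is 14.3 percent higher beside 11 percent of all features, with a median of 0.34 where that of all features was 0.04. Icos, a costimulatory receptor of activated T cells, read -2.11, -2.02, -2.13 and -1.99 with NiO and -2.96 and -3.07 with C60, against -3.78, -3.85 and -3.14 in the controls. The NiO arrays lay close together above all other arrays of the study; NiO lay wholly above control for 12.8 percent of all features at 3 days. Icos rose by 1.53 (SE 0.15, 2.88-fold, adjusted p = 3.22e-06), NiO minus C60 was 0.95 (SE 0.17, adjusted p = 0.00265), and the NiO effect was lower by 1.6 at 1 month than at 3 days (SE 0.20, adjusted p = 7.68e-05). Cd2, an adhesion molecule of T cells and NK cells, rose by 0.69 (SE 0.14, adjusted p = 0.00278; 0.0623 with only the NiO and control arrays fitted) and Cd6, an adhesion receptor of T cells, by 0.61 (adjusted p = 0.0401).

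**Figure D5:**
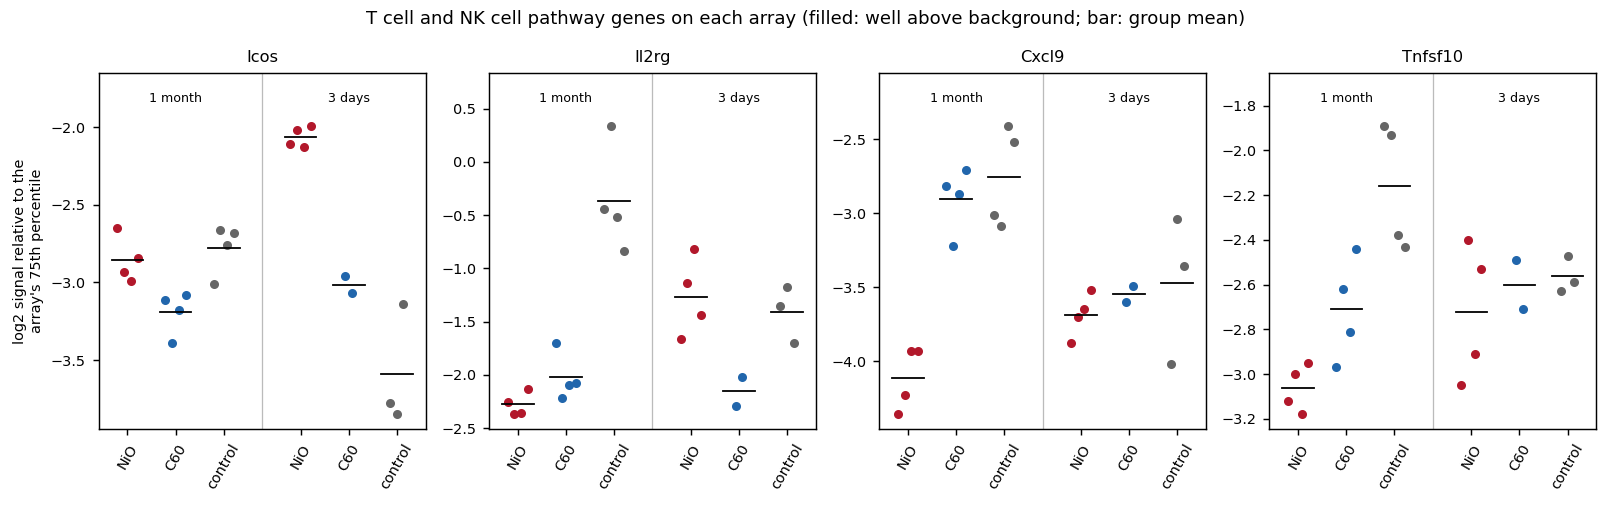
Log2 signal relative to the array's 75th percentile (y axis) of Icos, Il2rg, Cxcl9 and Tnfsf10 on each array, by group (x axis) at 1 month and at 3 days; bars are group means. The NiO arrays of 3 days stand apart from all others for Icos; among the arrays of 1 month, the controls stand apart for Il2rg and the NiO arrays for Cxcl9.

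In the NK, granule and cytokine lists 15.4, 7.69 and 16.7 percent were higher with NiO at 3 days, beside 11 percent of all features. The lower shares were 0, 7.69 and 0 percent, beside 7.81 percent. Of the NK list 2 were higher and 0 lower with NiO at 3 days, Klrc2 by 0.99 and the adaptor gene Sh2d1a by 0.59 (adjusted p = 0.0157 and 0.00996). Of the granule list Rab27a, which docks granules for release, rose by 0.60, and Srgn, the proteoglycan of the granule core, fell by 0.45 (adjusted p = 0.0358 and 0.0278). Of the cytokine list 3 rose: Cx3cl1, which encodes fractalkine, by 0.90 (adjusted p = 0.00493), Il18 by 0.64 (adjusted p = 0.0181) and Prdm1, a transcription factor of effector lymphocytes and plasma cells. Prdm1 was not well above background on any control array, nor on every NiO array. It was 1.76-fold higher as measured (adjusted p = 0.0201, limma), with log2 folds of 0.44 to 1.26 under other processing. NiO arrays 2 and 3 had lower signal than the rest of the arrays, with 75th percentiles of 372.4 and 336.1 against 501.9 to 689.0 on the other arrays used. Without them Icos, Cd2 and Prdm1 remained called and Cd6, Klrc2, Sh2d1a, Rab27a, Srgn, Cx3cl1 and Il18 were not.

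With C60 at 3 days 3 pathway genes were called. Klrc2 rose by 1.15 (SE 0.31, adjusted p = 0.039, limma). Prdm1, not well above background on any control array, was 2.69-fold higher as measured (adjusted p = 0.00342). Its log2 folds under other processing were 0.53 to 1.43. Foxp3 was not well above background on either C60 array, the arrays with the brightest negative controls. It was 2.42-fold lower as measured (adjusted p = 0.0433), with log2 folds of -1.30 to -0.23 under other processing. Its call was lost without 13 of 21 arrays taken singly, with an adjusted p of up to 0.421, and that of Klrc2 without 6, with one of up to 0.322.

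Markers of other cells moved with some of these results, and their part in them was not tested. Over all features 18.8 percent were called with NiO and 4.93 percent with C60 at 3 days. At 1 month the shares were 30.9 percent with NiO and 19.8 percent with C60. With NiO at 3 days 1 of 5 tested neutrophil markers was called, Cd177, higher by 4.47 (adjusted p = 8.77e-06), while the other 4 had negative differences and the list median was -0.13. Of 7 macrophage and monocyte markers 1 was called, Cd68, higher by 0.66 (adjusted p = 0.0232), 4 had negative differences and the median was -0.06. All 5 lung endothelium markers had negative differences, and Tie1 and Vwf were called lower, at -1.07 and -0.32. Of 2 tested dendritic cell markers Xcr1 was higher by 1.27 with NiO at 3 days and lower with C60 at 1 month, at -1.54 (adjusted p = 0.00828 and 0.00213). The other, Siglech, went the opposite way in both comparisons, at -0.51 and 0.41, and was not called. Of 6 mast cell and basophil markers 2 were lower with NiO at 1 month (Tpsab1 -0.86, Kit -0.57) and 1 with C60 (Tpsab1 -0.71). With NiO at 1 month 3 of 7 macrophage and monocyte markers were higher and 0 lower. Their mean level was 0.67 to 1.39 on the NiO arrays, against 0.50 to 0.67 on the control arrays. Of 5 neutrophil markers 1 was higher and 1 lower in that comparison. Of 6 alveolar epithelium markers 2 were higher and 0 lower with each particle at 1 month. Of 5 lung endothelium markers 1 was lower with NiO and 1 higher with C60 at 1 month. With C60 at 1 month 1 of 4 B cell markers was higher, Cd79b by 0.74 (adjusted p = 0.01), with a mean marker level of -2.36 to -1.87 on the C60 arrays, against -2.53 to -2.33 on the control arrays. In that comparison 2 of the 4 had negative differences, and the list median was 0.35. With C60 at 3 days 0 of 4 B cell markers were called (limma; lowest adjusted p 0.0579), with a mean level of -2.02 to -1.76 on the C60 arrays, against -3.22 to -2.42 on the control arrays. Of 4 red blood cell markers 0 were called with either particle, and their mean level at 1 month was -0.85 to -0.06 with NiO and -1.59 to 0.38 with C60, against -3.13 to -0.02 in the controls.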

How the data were processed

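RNA of rat right lung was hybridised to 1-colour Agilent whole-genome arrays. Per the file headers, the scanner software (Feature Extraction 9.5.3.1, protocol GE1-v5_95_Feb07, grid build rn4) gave the deposited intensity of each spot, already background-corrected and not scaled between arrays. A deposited value table holds a ratio for each probe and group; how it was scaled is not stated in the labels or headers, and it served as an alternative only. The labels give n = 2 for C60 at 3 days beside 4 array files. Arrays 1 and 2 matched the deposited table best and were used, which left 21 of 23 arrays. The unused arrays 3 and 4 had negative-control net signals of 40.8 and 34.2.

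Each log2 intensity was set relative to the array's 75th percentile, computed here from the deposited values. Control and outlier-marked spots were left out. The filter asked for a signal well above background throughout at least 1 group's arrays, which 28690 of 41012 probes met, and the brightest kept probe stood for a gene, giving 25242 features. Names came from RefSeq tables and, where these had none, from the files. limma 3.58.1 in R 4.3.3 (lmFit and eBayes, 6 groups in 1 fit) gave folds, two-sided p-values and Benjamini-Hochberg adjustment over all features; the data.table package (1.17.8), Python 3.11.15, pandas 2.3.3 and matplotlib 3.10.9 were also used. The fit was tested on simulated data. Where a group was below background on all its arrays, its own signal or a floor, whichever was higher, was set against the bright group's mean. The floor was the lowest signal among probes well above background. For Prdm1 and Foxp3 at 3 days this equalled the measured fold, so it is no lower confidence limit.

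All 10 members were described. Of each list, up to 5 called genes per direction and comparison were named, by largest fold, and the 3 genes nearest in pattern to any member whose group means span 1 log2 unit or more. The members and lists were chosen with earlier results of these data known. Nothing states that arrays of a group are separate exposures, so p-values reflect array-to-array spread only, and the number of arrays limits the precision. Alternatives covered background correction, scaling, the filter, array choice and weights, probe choice and each array left out.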

Additional observations from a re-analysis of the deposited data

Results flagged for a closer look

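Of the members' values, 3 stood apart from the other arrays of their group by Dixon's gap criterion, among 40 sets of a member in a group of 4 arrays or more; chance marks about 1 set in 20. Cd4 on control array 1 at 1 month read -4.37, with the other control arrays at -5.12 to -5.02. Klrb1a on C60 array 2 at 1 month read 0.43, with the other C60 arrays at 0.28 to 0.30. Klrd1 on NiO array 3 at 1 month read 0.98, with the other NiO arrays at 1.40 to 1.48. The effect of C60 on Klrb1a differed between the times: it was lower at 1 month than at 3 days by a log2 difference of -0.86 (SE 0.22, adjusted p = 0.0203, limma interaction), and it rests on 2 C60 arrays at 3 days.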

How the results depend on the processing

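No called value changed sign under any alternative run, but the number of members called did change. For NiO at 1 month, 1 member was called, and the number became 0 with normexp, with no filter and with only the groups compared, 2 with quantile normalization, with scaling to the array median (both higher), with probes well above background on every array and with the mean of a gene's probes, and 4 with array weights. For C60 at 1 month, 1 became 0 with all 4 C60 arrays of 3 days and with only the groups compared, 2 with scaling to the array median and with the mean of probes, and 4 with array weights. For Gzmb the mean of probes takes in the granzyme-like protein I and III probes, so it does not stand for granzyme B alone. For NiO at 3 days, 0 became 1 with scaling to the array median and with array weights. For C60 at 3 days, 1 became 0 with scaling to the array median and with only the groups compared. For NiO minus C60 at 3 days, 0 became 1 with all 4 C60 arrays and 3 with array weights. For the change of the NiO effect between times, 0 became 2 with scaling to the array median (higher) and 2 with array weights (lower), and for that of C60, 1 became 0 with scaling to the array median. Leaving out NiO arrays 2 and 3 at 3 days, an alternative chosen after seeing the data, gave 2 for NiO and 2 for C60 at 1 month; testing every kept probe was also chosen then. Leaving out each of the 21 arrays in turn gave 0 to 2 calls for NiO and 0 to 2 for C60 at 1 month, 0 to 1 and 0 to 1 at 3 days, 0 to 3 for NiO minus C60 at 3 days, 0 at 1 month, and 0 to 1 for each change of effect. Apart from the array-median scaling, calls over all features under each alternative are not given here. A change in the number of members called is thus not read as a result about the members. The causes of these shifts were not tested. Slide as a block was not run, because each slide held 1 group. No paired analysis was possible because the array positions carry no pairing in the labels. Of the members, Cd4 is limited by signal, being well above background on 15 of 21 arrays.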
